A study of Danio rerio with 4 samples.

Results

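The nuclear genes of the mitochondrial respiratory chain were followed in zebrafish embryos with and without an activated NUP98-HOXA9 transgene. The group took every gene whose symbol starts with nduf, sdh (a to d), uqcr, cox (4 to 8) or atp5, in the annotation of the array or as the current RefSeq symbol. This rule used no measured value, but the group was chosen with earlier results of these data known. The rule found 91 genes among the 9667 named genes on the array, through 172 probes. By symbol, 34 encode subunits of complex I, 5 of complex II, 8 of complex III, 17 of complex IV and 17 of complex V, and 8 are assembly factors. An older symbol alone brought in uqcr11 of complex III and the other 2 genes. One of these is dmac2l (older symbol atp5s), and the other is emc8 (older symbol cox4nb), a member of the membrane protein insertion complex of the endoplasmic reticulum that is no part of the respiratory chain. RefSeq's zebrafish table (assembly GRCz12tu) holds 108 protein-coding genes whose current symbol meets the rule, and 88 of them were measured.

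NHA9 embryos carried the fusion oncogene behind the spi1 promoter, which is active in myeloid cells, and their lox-flanked eGFP cassette had been removed by Cre from an hsp70-driven transgene. Control embryos, named lGl, carried the same spi1 construct with the cassette still in place and came from a cross to AB wild-type fish without Cre. Both groups were warmed to 37 °C for 1 hour at 24 hours post-fertilization, kept at 28 °C, and sampled at 28 hours, 4 hours after the heat shock. The Cre transgene and the second parent therefore differed between the groups together with the fusion gene, and their parts cannot be told apart. Each group had 2 RNA extracts, called biological replicates in the labels with no number of embryos or clutches given. Each NHA9 extract was paired with an lGl extract and hybridised on 2 arrays, once with NHA9 in Cy5 (the forward array) and once with the dyes exchanged (the dye swap). The RNA came from embryos with no cell sorting described, so fewer cells of a type and less RNA per cell cannot be told apart, and ratios hold no level from which tissue markers or the transgene could be checked.

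The respiratory chain passes electrons from NADH (complex I) and succinate (complex II) through coenzyme Q, complex III and cytochrome c to oxygen at complex IV. Complexes I, III and IV pump protons out of the matrix as they do so, and complex V, the ATP synthase, makes ATP from their return. Most subunits are encoded in the nucleus, and a few core subunits of complexes I, III, IV and V are encoded in mitochondrial DNA and lie outside the group described here. The catalytic core of each complex is surrounded by small accessory subunits, and assembly factors help to build a complex without staying in it.

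The 4 deposited columns were log ratios of the 2 channels, and no source says which channel is on top. Over all 20406 probes a forward array and its own dye swap correlated positively. Pearson's r was 0.747 for the arrays of replicate 1 and 0.465 for those of replicate 2, over probes that are not independent. Between a forward array and the swap of the other replicate r was lower. It was 0.112 for the forward array of replicate 1 and 0.109 for that of replicate 2. The values are therefore given in both readings. In the first, all 4 columns are taken as 1 contrast, whose direction is not given, and averaged. In the second, the swap columns are turned, and the value is the forward ratio minus the swap ratio, divided by 2, named the orientation difference here. If the columns were deposited as Cy5 over Cy3, the orientation difference is NHA9 over lGl and the mean of the 4 columns follows the dye. If the columns had already been turned, the orientation difference is the part of each ratio that goes with the dye. Across the 91 genes r was 0.10 and 0.17 between a forward array and its own swap, replicate 1 first. Between a forward array and the swap of the other replicate it was −0.03 and −0.51, in the order of the forward arrays. How a column was deposited is the same for every gene on its array. Which reading holds was not tested, so no direction in the embryos is claimed from either. An array and its swap share their extracts and count as 1 replicate, so n = 2 throughout, and errors are SDs between the replicates. Both quantities were tested against 0 with limma over 13263 items (the named genes and 3596 unnamed probes), at a Benjamini-Hochberg adjusted p of 0.05. For the mean of the 4 columns, limma gave all items the same pooled spread, so its p does not measure the SD printed beside it. The same holds for each orientation alone and for both quantities when probes were kept apart. For the orientation difference of genes, the spread of each item was drawn largely toward a pooled value. Values are on the log2 scale, which holds only if the deposited logs have base 2.

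Read as 1 contrast, no respiratory chain gene passed the test. The count was 0 of 91 in limma, where 2.83% of all items were called, 2.04% higher and 0.792% lower, and 5 of the 91 had an unadjusted p under 0.05, as did 1385 of the 13263 items. The median of the 91 mean ratios was −0.03 (−0.15 in replicate 1 and 0.06 in replicate 2), and the median of all items was 0.02. Positive means were found for 42 genes and negative means for 49, and all lay between −0.72 and 0.76. The 95% interval of a mean ratio in the pooled fit was ±0.59, and the smallest mean ratio called for any item in this fit was 0.96, so smaller mean ratios could not be called in it. The replicates differed in balance. In replicate 1, 71 of the 91 genes had a ratio below 0, and in replicate 2, 49 were above 0. For 56 genes the SD between the replicates was larger than the mean. Only 4 genes were positive on all 4 arrays and 21 were negative on all 4, against 19.4% and 13.2% of all items.

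**Figure D1:**
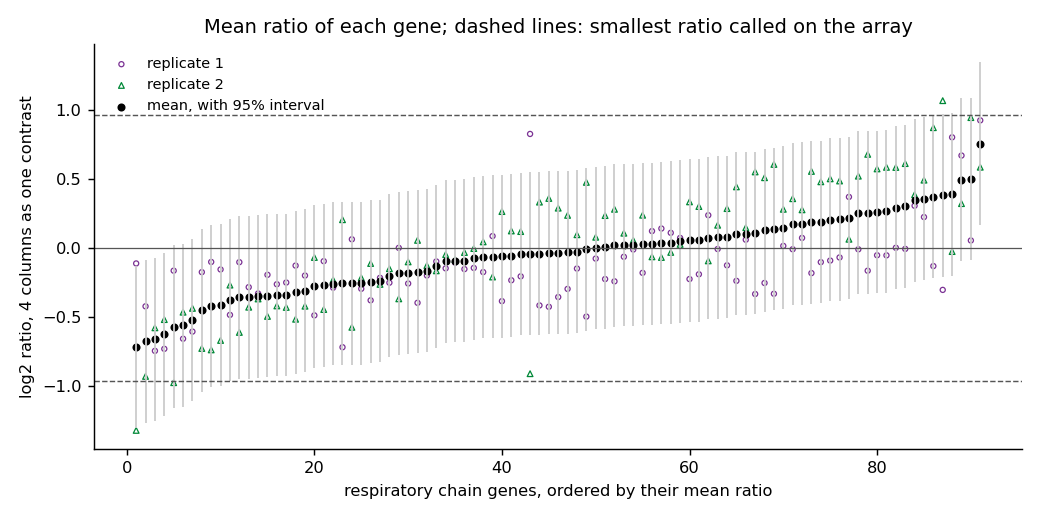
Mean log2 ratio of each of the 91 genes over the 4 columns (black points, with the 95% interval of the pooled fit in grey), with replicate 1 as open circles and replicate 2 as open triangles. The genes are ordered by their mean, and all means lie between the dashed lines at 0.96 and −0.96, the smallest mean ratio called for any item in this fit.

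The 5 genes with an unadjusted p under 0.05, a smaller share than that of all items, belong to different parts of the chain, and their values are given as a description. ndufaf3, an assembly factor of complex I, had the highest mean. Here and below the value of replicate 1 stands before that of replicate 2. Its ratios were 1.06 and 0.70 on the forward arrays and 0.79 and 0.48 on the swaps, with a mean of 0.76 ± 0.24 (SD, n = 2; adjusted p = 0.218). All 4 arrays were positive for it. ndufv1, the NADH-binding flavoprotein of complex I, had the lowest mean, −0.72 ± 0.86 (adjusted p = 0.271). Its forward ratios were −0.16 and −1.63 and its swap ratios −0.07 and −1.01, so replicate 2 carried most of that mean, and replicate 1 alone gave −0.11. atp5f1c, the γ subunit that forms the rotor shaft of the ATP synthase, was at −0.37 and −0.81 on the forward arrays and at −0.47 and −1.05 on the swaps (mean −0.68 ± 0.36, adjusted p = 0.334). atp5mea, the e subunit of the ATP synthase, was at −0.64 and −0.35 on the forward arrays and at −0.82 and −0.68 on the swaps (mean −0.62 ± 0.15, adjusted p = 0.432). sdhaf2, which helps to attach the flavin of succinate dehydrogenase, was at −0.73 and −0.38 on the forward arrays and at −0.76 and −0.78 on the swaps (mean −0.66 ± 0.12, adjusted p = 0.359). The last 3 were negative on all 4 arrays.

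Turned by dye, the picture was different. Of the 91 genes, 36 stood higher on the forward arrays than on the swaps past the threshold, 1 stood lower and 54 did not pass. That is 39.6% higher, against 9.85% of all items called higher and 5.11% called lower. The median orientation difference was 0.16 (0.11 in replicate 1 and 0.22 in replicate 2), against −0.04 over all items. It was positive for 70 of the 91 genes, against 41.7% of all items. The 36 genes had the same sign in both replicates, and none of them had an SD above its mean. Both follow largely from the test, which chose the genes on these same 2 values. The pooled 95% interval of an orientation difference was ±0.18.

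The same pattern can be read from the single arrays. The median ratio of the 91 genes was 0.03 and 0.29 on the forward arrays, and −0.34 and −0.29 on the swaps, replicate 1 first. Averaged over replicates, the forward median was 0.17 and the swap median −0.32. A positive ratio on both forward arrays with a negative ratio on both swaps was found for 28 of the 91 genes, 30.8%, against 5.58% of all items. The opposite pattern, found for 4.99% of all items, was held by ndufs1 alone. Both forward arrays lay above both swaps for 44 genes, where 16.1% of all items did so. Of the 36 called genes, 32 were among these 44. The count of 32 follows largely from the test, which chose the genes on the same ratios. So does the lack of overlap between forward and swap ratios in called genes described below. As a description across the 91 genes, which share arrays and extracts, the orientation difference correlated between replicates with r = 0.89 and the mean of an array and its swap with r = 0.12. Over all items these correlations were 0.83 and 0.34.

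**Figure D2:**
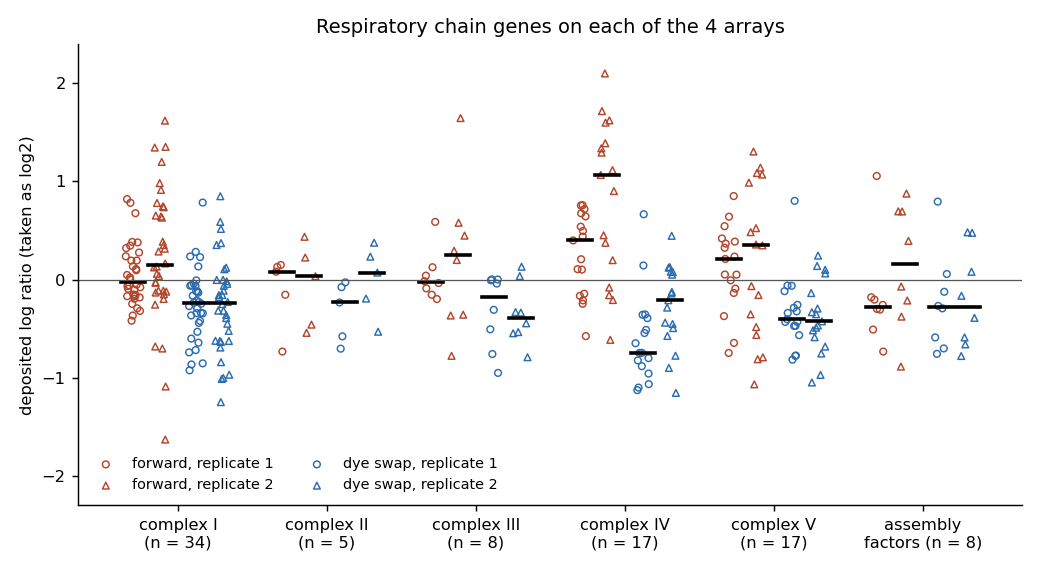
Deposited log ratio (taken as log2) of each respiratory chain gene on the forward arrays (red) and the dye swaps (blue), by complex, with circles for replicate 1, triangles for replicate 2 and black bars for medians. In complex IV the forward medians are 0.40 and 1.07 and the swap medians −0.75 and −0.21. For the 5 genes of complex II the forward medians are 0.08 and 0.035 and the swap medians −0.23 and 0.07.

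**Figure D3:**
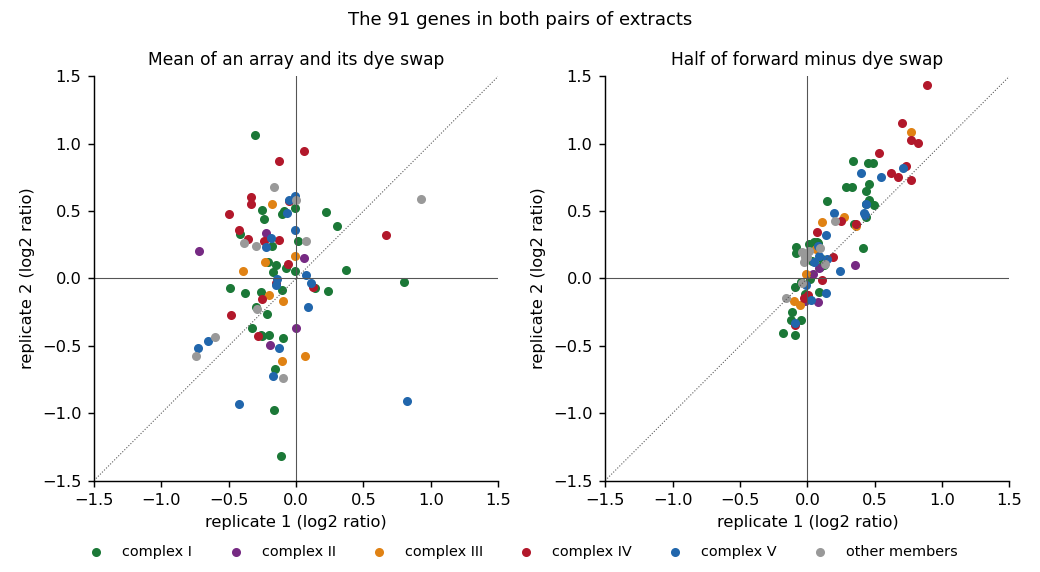
Replicate 1 (horizontal axis) against replicate 2 (vertical axis) for the 91 genes, as log2 ratios, coloured by complex. The mean of an array and its swap (left) scatters around 0 with r = 0.12, and the orientation difference (right) follows the dotted line of equal values with r = 0.89.

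Complex I takes electrons from NADH. Of its 34 genes, 14 stood higher on the forward arrays (41.2%), 1 stood lower and 19 did not pass. Over all items 9.85% were called higher and 5.11% lower. The median orientation difference of complex I was 0.15. The 14 were accessory subunits. ndufb4, of the membrane arm, was at 0.11 and 0.75 on the forward arrays and at −0.86 and −0.97 on the swaps (orientation difference 0.67 ± 0.26, adjusted p = 9.15e-05). ndufb2, also of the membrane arm, was at 0.68 and 1.34 on the forward arrays and at −0.23 and −0.36 on the swaps (0.65 ± 0.28, adjusted p = 0.00015). ndufb6 was at 0.24 and 1.35 on the forward arrays and at −0.44 and −0.39 on the swaps (0.61 ± 0.38, adjusted p = 0.000758). In each of these 3 genes the orientations did not overlap, and the forward ratio was higher in replicate 2. Non-overlapping ratios were also seen for ndufb8, with 0.35 and 0.64 on the forward arrays and −0.64 and −0.45 on the swaps (0.52 ± 0.04, adjusted p = 0.000455), a mean over 4 probes.

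The other called genes of complex I had smaller or similar differences. The orientation difference was 0.58 for ndufa11, 0.54 for ndufb11 and 0.51 for ndufs5. It was 0.52 for ndufab1b, one of a pair of acyl carrier proteins that sit in complex I and also serve mitochondrial fatty acid synthesis. ndufc2 reached 0.48, ndufa5 reached 0.45, ndufs6 reached 0.38, ndufa6 reached 0.36 and ndufb9 reached 0.32, with adjusted p between 0.000249 and 0.0237 for all of these. ndufa4a was at 0.14 and 1.62 on the forward arrays and at −0.74 and 0.52 on the swaps (0.49 ± 0.08, adjusted p = 0.000785). The mammalian protein of that name is now assigned to complex IV. The gene that stood lower was ndufa7, an accessory subunit, at −0.42 and 0.04 on the forward arrays and at −0.06 and 0.85 on the swaps (−0.29 ± 0.16, adjusted p = 0.036).

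The 6 measured core subunits of complex I carry its flavin and iron-sulphur clusters or hold them in place. Their median orientation difference was −0.13, and none was called. In limma 1 had an unadjusted p under 0.05 as 1 contrast (ndufv1) and 1 turned by dye (ndufs1). The other 28 subunits of complex I had a median of 0.24. ndufs1, with iron-sulphur clusters, was at −0.10 and −0.03 on the forward arrays and at 0.13 and 0.59 on the swaps (−0.21 ± 0.13, adjusted p = 0.112). ndufs3 was negative on all 4 arrays, at −0.37 and −0.68 on the forward arrays and at −0.13 and −0.18 on the swaps (mean −0.34 ± 0.13). ndufv2 was also negative on all 4, with a mean of −0.27 ± 0.25. ndufs7 and ndufs8a, which carry the clusters nearest to coenzyme Q, had means of 0.07 ± 0.23 and 0.04 ± 0.15. ndufa9a, an accessory subunit near the site of coenzyme Q, was at −0.25 and −1.09 on the forward arrays and at −0.06 and −0.25 on the swaps, with a mean of −0.41 ± 0.36.

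Complex II takes electrons from succinate and is also the succinate dehydrogenase of the citric acid cycle. None of its 5 genes was called by limma in either reading (at an unadjusted p under 0.05, 0 as 1 contrast and 1 turned by dye), and their median orientation difference was 0.04. sdha, the flavoprotein, was negative on all 4 arrays, at −0.15 and −0.46 on the forward arrays and at −0.23 and −0.53 on the swaps (mean −0.34 ± 0.21). sdhb, the iron-sulphur subunit, had a mean of −0.18 ± 0.26. Of the membrane anchors, sdhc had the largest orientation difference, 0.23 ± 0.18 (adjusted p = 0.0982), and sdhdb had a mean of 0.10 ± 0.06. sdhda parted the replicates, at −0.73 and −0.70 on the 2 arrays of replicate 1 and at 0.04 and 0.38 on those of replicate 2.

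Complex III passes electrons from coenzyme Q to cytochrome c. Of its 8 genes, 3 stood higher on the forward arrays (37.5%, against 9.85% of all items), all of them small accessory subunits. uqcrq was at 0.59 and 1.65 on the forward arrays and at −0.95 and −0.53 on the swaps (0.93 ± 0.23, adjusted p = 1.5e-06; 3 probes). uqcrb was at 0.04 and 0.58 on the forward arrays and at −0.51 and −0.33 on the swaps (0.36 ± 0.13, adjusted p = 0.0108). uqcr11, which RefSeq now lists under a clone name, was at −0.04 and 0.45 on the forward arrays and at −0.76 and −0.34 on the swaps (0.38 ± 0.02, adjusted p = 0.00708). Forward and swap ratios did not overlap in these 3 genes. The large core proteins and the Rieske iron-sulphur protein did not pass. uqcrc1 had an orientation difference of −0.13 ± 0.10, uqcrc2a of −0.13 ± 0.05 and uqcrc2b of 0.01 ± 0.03. The 3 probes of uqcrc1 had orientation differences from −0.36 to 0.12. When probes were kept apart, limma called the lowest of these (adjusted p = 0.00984). uqcrfs1, the Rieske protein, was at 0.13 and −0.36 on the forward arrays and at 0.00 and −0.79 on the swaps (0.14 ± 0.11). Its 4 probes did not agree, with orientation differences from −0.18 to 0.71. With probes kept apart, limma called the highest of them (adjusted p = 3.87e-09).

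Complex IV, cytochrome c oxidase, reduces oxygen to water. It had the highest median orientation difference of the 5 complexes, 0.70, with a forward median of 0.70 and a swap median of −0.48. Of its 17 genes, 11 stood higher on the forward arrays (64.7%, against 9.85% of all items) and 6 did not pass. Its nuclear subunits surround a core encoded in mitochondrial DNA. cox8a, the smallest of them in mammals, was at 0.64 and 1.72 on the forward arrays and at −1.13 and −1.15 on the swaps, and its orientation difference of 1.16 ± 0.39 was the highest of the 91 genes (adjusted p = 7.1e-07). cox5ab, one of a pair of copies of subunit 5a, was at 0.76 and 2.10 on the forward arrays and at −0.65 and −0.21 on the swaps (0.93 ± 0.32, adjusted p = 3.28e-06). cox6a1 was at 0.76 and 1.11 on the forward arrays and at −0.88 and −0.90 on the swaps (0.91 ± 0.13, adjusted p = 1.09e-06). In these 3 genes every forward ratio was positive and every swap ratio negative, and their means over the 4 columns were 0.02, 0.50 and 0.02.

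cox7a2a was at 0.72 and 1.60 on the forward arrays and at −0.82 and −0.45 on the swaps (0.90 ± 0.18, adjusted p = 1.58e-06). cox7c was at 0.54 and 1.62 on the forward arrays and at −0.80 and 0.12 on the swaps (0.71 ± 0.06, adjusted p = 1.35e-05). The orientation difference was 0.78 ± 0.07 for cox7b, 0.75 ± 0.03 for cox6c, 0.73 ± 0.28 for cox6b2 and 0.70 ± 0.11 for cox5ba, a copy of the zinc-binding subunit 5b. It was 0.38 ± 0.03 for cox5aa and 0.34 ± 0.12 for cox6b1. Forward and swap ratios overlapped in none of these 6 genes except cox6b1, whose forward ratios were −0.25 and 0.90 and swap ratios −0.75 and 0.05.

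**Figure D4:**
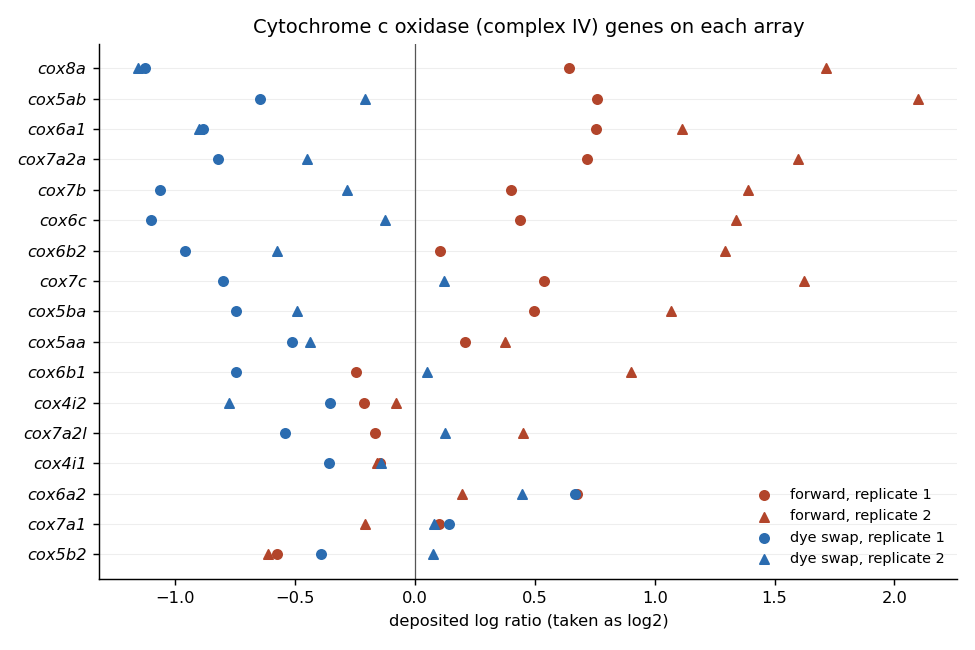
Deposited log ratio (taken as log2) of the 17 genes of complex IV on each array, ordered by their orientation difference, with forward arrays in red, dye swaps in blue, circles for replicate 1 and triangles for replicate 2. For cox8a, at the top, the forward ratios of 0.64 and 1.72 lie far above the swap ratios of −1.13 and −1.15, and for cox6a2 all 4 ratios are positive.

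Copies of 1 subunit in complex IV had different values. cox6a2, whose mammalian counterpart is the muscle and heart form of subunit 6a, was at 0.68 and 0.20 on the forward arrays and at 0.67 and 0.45 on the swaps. It was the only gene of complex IV that was positive on all 4 arrays (mean 0.50 ± 0.25, adjusted p = 0.634), and its orientation difference was −0.06 beside the 0.91 of cox6a1. cox7a1, also a muscle and heart form in mammals, had an orientation difference of −0.08 beside the 0.90 of cox7a2a. cox5b2 was at −0.58 and −0.61 on the forward arrays and at −0.39 and 0.08 on the swaps, an orientation difference of −0.22 beside the 0.70 of cox5ba. cox4i1 and cox4i2, alternative forms of subunit 4, were negative on all 4 arrays, with means of −0.20 ± 0.07 and −0.36 ± 0.10, and orientation differences of 0.05 and 0.21. cox7a2l, a factor that joins complexes III and IV in mammals, had 0.18. The differences between copies were not tested, and no pair of the 14 compared across the chain differed by more than 1 in either quantity. The widest gap in the mean of the 4 columns, 0.95, was between ndufa4a (0.38 ± 0.97) and ndufa4b (−0.57 ± 0.57). In complex V, atp5mc3a and atp5mc3b, which encode the same ring protein in 2 copies, had orientation differences of 0.02 and 0.76.

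Complex V, the ATP synthase, has a catalytic head, a rotor with a ring of c subunits in the membrane, and a peripheral stalk. Of its 17 genes, 7 stood higher on the forward arrays (41.2%, against 9.85% of all items) and 10 did not pass. The median orientation difference was 0.16. Genes of the c ring had the highest values. atp5mc3b was at 0.64 and 1.30 on the forward arrays and at −0.78 and −0.33 on the swaps (0.76 ± 0.08, adjusted p = 5.88e-06; 4 probes). atp5mc1 was at 0.32 and 0.99 on the forward arrays and at −0.77 and −0.52 on the swaps (0.65 ± 0.14, adjusted p = 5.52e-05; 3 probes). atp5f1b, the catalytic β subunit, was at 0.54 and 0.52 on the forward arrays and at −0.32 and −0.59 on the swaps (0.49 ± 0.09, adjusted p = 0.000798), a mean over 5 probes. In these 3 genes the signs of the ratios followed the orientation on all 4 arrays. The small membrane subunit atp5mj had 0.59, atp5l (subunit g) 0.45, atp5f1d (subunit δ of the rotor) 0.45 and atp5meb (subunit e) 0.34, with adjusted p between 0.000426 and 0.0199.

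The other parts of the ATP synthase did not pass. atp5fa1, the α subunit that alternates with β in the head, had an orientation difference of 0.15 ± 0.00 (adjusted p = 0.254). That is a mean over 4 probes that did not agree, with orientation differences from −0.20 to 0.74. With probes kept apart, limma called the highest of them (adjusted p = 5.92e-10). atp5pb, of the peripheral stalk, was negative on all 4 arrays, at −0.75 and −0.79 on the forward arrays and at −0.57 and −0.14 on the swaps (mean −0.56 ± 0.14, adjusted p = 0.521). atp5pf, also of the stalk, parted the replicates, at 0.85 and 0.80 on the 2 arrays of replicate 1 and at −1.07 and −0.75 on those of replicate 2. atp5if1a and atp5if1b, the inhibitors that stop the enzyme from running backwards, had means of 0.06 ± 0.35 and 0.05 ± 0.03 and orientation differences of 0.15 and 0.23.

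Across the 5 complexes, 24 subunits had been listed as core or named by role, and 57 were the rest. The list of 24 includes the inhibitors atp5if1a and atp5if1b and the complex IV subunits cox4i1, cox4i2, cox5aa and cox5ab. It is therefore not a list of catalytic subunits alone. The first had a median orientation difference of 0.05, with 3 called higher (cox5aa, cox5ab and atp5f1b). That is 12.5%, near the 9.85% of all items called higher. The others had a median of 0.36, with 32 called higher (56.1%) and 1 lower, where 5.11% of all items were called lower. The difference between these lists was not tested. Among the 8 assembly factors the median was 0.09, and 1 was called (12.5%), ndufaf5, at 0.32 ± 0.16 (adjusted p = 0.0251). Besides ndufaf3 and sdhaf2, ndufaf2 and ndufaf1 had the means farthest from 0, −0.52 ± 0.12 and −0.42 ± 0.45, without passing the test. The genes held by an older symbol, dmac2l and emc8, had means of 0.18 and 0.29 and orientation differences of −0.04 and 0.05.

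Several calls could be made on 1 orientation taken alone, with n = 2 arrays. On the forward arrays 6 genes were called higher, where 3.54% of all items were (and 1.11% lower), namely cox5ab (1.43, adjusted p = 0.000721), cox8a (1.18, adjusted p = 0.00985), cox7a2a (1.16), uqcrq (1.12), cox7c (1.08) and ndufb2 (1.01). On the dye swaps, where 1.95% of all items were called higher and 1.87% lower, no gene was called higher and 1 was called lower, again cox8a (−1.14, adjusted p = 0.0092). cox8a thus passed the test with opposite signs on the 2 orientations.

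More than 1 probe measured 52 of the genes, and the other 39 had a single probe. Of the 36 genes called on the orientation difference, 17 had more than 1 probe. The probes of a gene spanned a median of 0.16 in the mean of the 4 columns and 0.29 in the orientation difference. The widest spans in the orientation difference were 0.94 for atp5fa1 and 0.89 for uqcrfs1. Some called genes also had probes that did not pass when limma kept probes apart. By probe, the orientation difference ran from 0.04 to 0.73 for uqcrb and from 0.23 to 0.79 for atp5f1b. It ran from 0.15 to 0.79 for ndufb8 and from −0.44 to −0.15 for ndufa7. The weakest probe of each had an adjusted p of 0.848, 0.129, 0.345 and 0.337, in that order. Nor did the weakest probes of atp5mc1 (0.24, adjusted p = 0.0986), ndufs6 (0.19, adjusted p = 0.217), atp5meb (0.07, adjusted p = 0.660) and atp5l (0.18, adjusted p = 0.229) pass. Single probes of genes that were not called passed in both directions in that fit. Lower were probes of cox5b2 (−0.45, adjusted p = 0.000705), uqcrc1 (−0.36), ndufa9a (−0.36, adjusted p = 0.0104), ndufs3 (−0.28, adjusted p = 0.0486) and ndufa13 (−0.28, adjusted p = 0.04998). Higher, besides atp5fa1 and uqcrfs1, were among others probes of atp5if1b (0.60, adjusted p = 1.16e-06) and cox4i2 (0.41, adjusted p = 0.00234). The only gene whose probes lay more than 1 apart was ndufa1, a membrane-arm subunit of complex I, with means of −0.12 and 0.90 for its 2 probes. The probe with the higher mean was at 2.08 and 0.29 on the forward arrays and at 1.57 and −0.35 on the swaps.

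Lists of neighbouring mitochondrial functions differed in their share of calls on the orientation difference. The share called higher was 28.6% for iron-sulphur cluster assembly and 23.5% for regulators of mitochondrial DNA and biogenesis, against 9.85% of all items. It was 11.8% for the list of cytochrome c and coenzyme Q, 11.8% for carriers and porins, 11.5% for protein import, 8% for glycolysis, 2.70% for assembly and translation factors outside the rule, and 0 of 22 for pyruvate dehydrogenase and the citric acid cycle. The lists hold 14 to 37 measured genes, and the differences between lists were not tested. The lists were chosen with earlier results of these data known, and their counts are descriptions. Of 37 measured assembly and translation factors of the respiratory chain outside the rule, 1 passed in each reading, the same gene, uqcc2. It acts in the making of cytochrome b and the assembly of complex III. Its single probe was at 1.56 and 2.61 on the forward arrays and at 0.61 and 0.73 on the swaps, a mean of 1.38 ± 0.41 (adjusted p = 0.00041) and an orientation difference of 0.71 ± 0.33 (adjusted p = 9.15e-05). All 4 ratios were positive and the forward ratios were the higher. With the 4 arrays fitted apart and the replicate as a random block, the mean no longer passed (adjusted p = 0.328).

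Among 17 measured genes for cytochrome c, coenzyme Q and other electron entry, 2 stood higher on the forward arrays. They were cycsb, a cytochrome c, at 0.51 ± 0.13 (adjusted p = 0.000741), and coq7, a hydroxylase of coenzyme Q synthesis, at 0.29 ± 0.12. Of 22 genes of the pyruvate dehydrogenase complex and the citric acid cycle, 1 stood lower, dlat, the acetyltransferase of the pyruvate dehydrogenase complex, at −0.28 ± 0.17 (adjusted p = 0.0474). It was not called after median centring (adjusted p = 0.0617) or among named genes alone (adjusted p = 0.0517). Of 17 carriers and porins, 2 stood higher and 1 lower on the forward arrays. slc25a3b, the carrier that brings phosphate to the ATP synthase, was at 0.36 and 1.05 on the forward arrays and at −0.90 and −0.46 on the swaps (0.69 ± 0.09, adjusted p = 2.03e-05). slc25a5, an exchanger of ADP and ATP, had 0.45 ± 0.17 over 10 probes, and mpc2a, of the pyruvate carrier, had −0.35 ± 0.31. Of 25 genes of glycolysis, 2 copies of aldolase, aldoaa and aldoab, stood higher, at 0.30 and 0.31.

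Of 14 genes of iron-sulphur cluster assembly, 4 stood higher on the forward arrays, namely glrx5 (0.63), iba57 (0.49), hscb (0.43) and bola3 (0.27), and fdx2 stood lower (−0.35). The call of bola3 was lost after quantile normalization (adjusted p = 0.0655) and with the replicate as a random block (adjusted p = 0.0853). For the orientation difference that block fit used a correlation of −0.897 between the turned arrays of a pair, against 0.493 for the mean. A negative correlation is not that of a shared block, so the fit is a limited check of orientation differences. isca1, which acts late in making the clusters that complexes I and II need, was called as 1 contrast. It was at 3.61 and 2.84 on the forward arrays and at 3.47 and 2.91 on the swaps (mean 3.21 ± 0.47, adjusted p = 2.1e-23), with an orientation difference of 0.02. Of 26 genes of protein import, hspe1, a co-chaperonin (0.95), tomm5 (0.44) and dnajc19 (0.32) stood higher and pmpcb, of the presequence peptidase, stood lower (−0.39). dnajc19, of the inner membrane import motor, was also called as 1 contrast, at 1.04 ± 1.07 (adjusted p = 0.0232). Its mean over an array and its swap was 0.29 for replicate 1 and 1.80 for replicate 2. That call was lost with the replicate as a random block (adjusted p = 0.358), as was the call on its orientation difference (adjusted p = 0.110). The call as 1 contrast was also lost with the arrays scaled to a common spread (adjusted p = 0.183). Of 17 regulators of mitochondrial DNA and biogenesis, 4 stood higher on the forward arrays, mtif3 (0.36), tfb1m (0.35), tfam (0.30) and mtif2 (0.28), the last of which did not pass among named genes alone (adjusted p = 0.0541).

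Gene groups outside the respiratory chain also moved with the dye orientation. Of the 77 cytoplasmic ribosomal protein genes, 73 stood higher on the forward arrays (94.8%), with a median orientation difference of 0.94, a forward median of 0.82 and a swap median of −1.05. As 1 contrast limma called 0 of them, and 1 had an unadjusted p under 0.05. Of the 69 mitochondrial ribosomal protein genes, 5 stood higher and 4 lower, with a median of −0.03. Among tissue markers, 7 of 15 measured muscle genes, 4 of 8 erythroid genes, 3 of 5 yolk and liver genes, 1 of 5 heart genes and 0 of 6 neural genes stood higher on the forward arrays (9.85% of all items did), with median orientation differences of 0.18, 0.39, 0.56, 0.01 and −0.05. pvalb2 had the highest value of the muscle genes, at 1.98 and 1.74 on the forward arrays and at −0.23 and −1.22 on the swaps (1.29 ± 0.26). fabp1b.1 of the yolk and liver list also had 1.29 ± 0.25, and hbbe1.1 of the erythroid list had 0.97 ± 0.38. apoa1a and apoa2 of the yolk and liver list had 0.56 and 0.86. The other called muscle genes lay between 0.30 (ckma) and 1.11 (actc1b), with acta1b at 0.95, mylpfa at 0.93, pvalb1 at 1.02 and atp2a1 at 0.64. The other called erythroid genes were hbae1.1 (0.70), hbbe3 (0.86) and hbae3 (0.95), and the heart gene was tnni1b (0.40). Other genes of these lists were not called, among them alas2 (−0.12), gata1a (0.01), hbbe2 (0.08), myhz1.1 (−0.15) and myhz2 (−0.08). The orientation difference was negative for 3 muscle, 1 erythroid, 2 heart, 4 neural and 0 yolk and liver genes. As 1 contrast limma called 0 marker genes, and an unadjusted p under 0.05 was found for 2 muscle, 3 erythroid, 1 heart and 1 neural gene. The part of these tissues in the values of the respiratory chain genes was not tested.

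**Figure D5:**
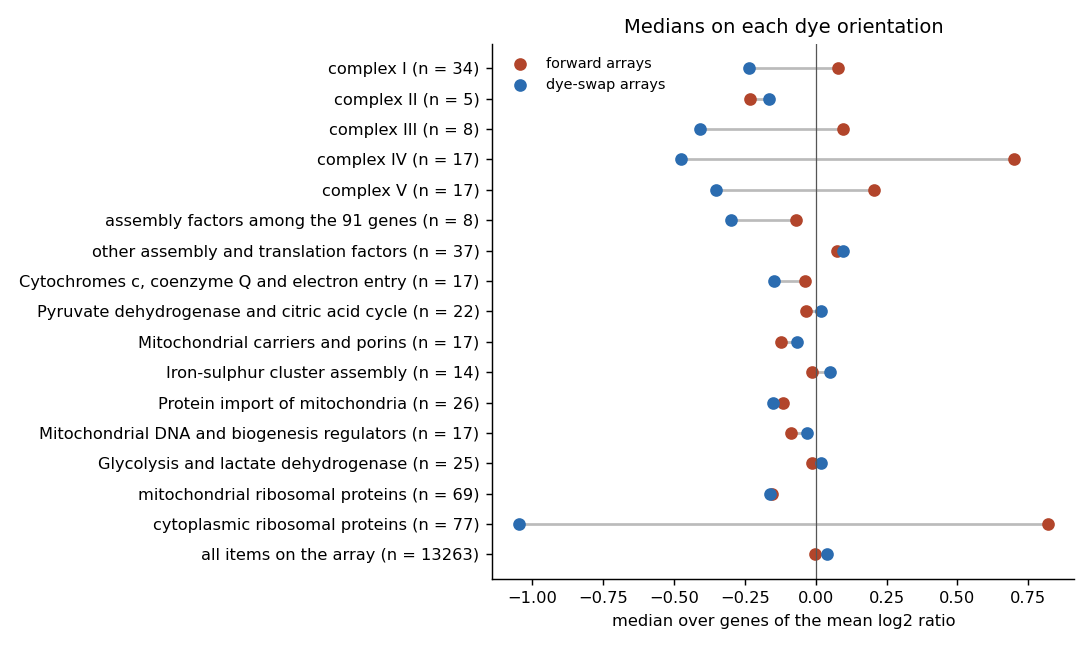
Median over genes of the mean log2 ratio on the forward arrays (red) and on the dye swaps (blue) for the gene lists named on the vertical axis, with a grey line between them. Among the lists drawn here, which leave out the tissue markers, the gap is widest for the cytoplasmic ribosomal proteins, 0.82 against −1.05, then for complex IV, 0.70 against −0.48, and the medians of all items lie at 0.00 and 0.04.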

How the data were processed

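Per the labels' protocols, total RNA was purified with Trizol and an RNeasy kit, its cDNA was coupled to Alexa Fluor dyes during reverse transcription, and scarce RNA was amplified, in samples that are not named. The values are log2 ratios of the 2 channels as deposited by the authors, 20406 probes on each of the 4 arrays, with medians from −0.01 to 0.03 and a range of −7.98 to 6.75. The base of 2 is assumed. Not given in the sources used here are the scanner, background correction, normalization and filter. Intensities were not used, so signal over background is unknown, and 2 replicates set the precision. Probes were named through the platform's annotation, updated by RefSeq (GRCz12tu). Of all probes, 16810 had 1 symbol, of which 14620 matched by accession, 1676 by symbol and 503 by synonym, and 11 kept the platform's name. Probes of a gene were averaged. limma 3.58.1 (R 4.3.3; lmFit, eBayes, Benjamini-Hochberg) was run on all 13263 items and tested on simulated data. A replicate number marks the same pair of extracts on both arrays, per the labels, so the pair was averaged. The 5 complexes were assigned from symbols.

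The genes named were all those called, the 3 extremes of each complex in either quantity, the listed core subunits, and pairs of copies or probes over 1 apart. The members and all lists were chosen with earlier results of these data known. The alternatives tried were median centring, a common spread, quantile normalization, probes kept apart, named genes alone, the platform's symbols, the replicate block with and without a dye term, each orientation alone, each replicate left out, and each gene's own spread. Probe and protein sequences and genome positions were not used.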

Additional observations from a re-analysis of the deposited data

Results flagged for a closer look

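The forward arrays and the dye swaps went opposite ways for 26 genes of the respiratory chain and for the median over complexes I to V. In each of the 26 genes both forward arrays were positive, both dye swaps were negative, and limma's test of the orientation difference passed. These genes were picked on the same values that are listed here. The sign pattern alone was held by 30.8% of the 91 genes and 5.58% of all items. It was held by 70 of the 77 cytoplasmic ribosomal protein genes (90.9%), so it is not particular to the respiratory chain. The median over the 81 subunits was 0.518 higher on the forward arrays than on the swaps, a difference that was not tested as such. The same measure, forward mean minus swap mean, was 2.32 for cox8a, 1.86 for cox5ab, 1.83 for cox6a1, 1.80 for cox7a2a, 1.57 for cox7b, 1.5 for cox6c, 1.47 for cox6b2, 1.40 for cox5ba and 0.766 for cox5aa in complex IV. In complex III it was 1.86 for uqcrq and 0.728 for uqcrb. In complex V it was 1.53 for atp5mc3b, 1.30 for atp5mc1, 1.18 for atp5mj, 0.989 for atp5f1b and 0.682 for atp5meb. In complex I it was 1.34 for ndufb4, 1.30 for ndufb2, 1.21 for ndufb6, 1.16 for ndufa11, 1.09 for ndufb11, 1.04 for ndufab1b, 1.04 for ndufb8, 1.01 for ndufs5, 0.963 for ndufc2 and 0.634 for ndufb9. The adjusted p of each gene is that of its orientation difference, from 7.1e-07 for cox8a to 0.0237 for ndufb9.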

How the results depend on the processing

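Read as 1 contrast, the count of 0 higher and 0 lower became 15 higher and 26 lower with the replicate block and a dye term, a fit whose error holds only the spread between the 2 arrays of a pair and not that between extracts. It became 6 higher on the forward arrays alone, 1 lower on the dye swaps alone, and 36 higher and 1 lower with the columns turned by dye. With the replicate as a random block and no dye term it stayed 0. The median of −0.03 became 0.16 turned by dye, 0.17 on the forward arrays and −0.32 on the swaps. Turned by dye, the 36 higher genes became 71 of 172 probes when probes were kept apart, 0 when each gene was tested on its own spread (1 degree of freedom), and 0 as 1 contrast. The median of 0.16 turned by dye became −0.033 with the columns as 1 contrast. The 1 lower gene became 4 with a common spread, 3 after quantile normalization, 6 of 172 probes, 0 on its own spread and 0 as 1 contrast. With probes kept apart, 2386 of all 20406 probes were called higher and 1397 lower turned by dye. The swap median of −0.32 was −0.35 with a common spread. cox8a, at 0.02 as 1 contrast, was at −1.14 on the swaps alone, and the orientation difference of isca1 turned from 0.02 to −0.22 (adjusted p = 0.0374) after quantile normalization. Without replicate 1 or 2, the median as 1 contrast ranged from −0.15 to 0.06, turned by dye from 0.11 to 0.22, on the forward arrays from 0.03 to 0.29 and on the swaps from −0.34 to −0.29, and no count can be tested from 1 replicate. Over all items, 1306 were called higher and 678 lower turned by dye, 2514 and 2151 with a common spread, 1821 and 1952 after quantile normalization, and 1433 and 504 after centring. Over all items as 1 contrast, 271 were called higher and 105 lower, 89 and 25 with the random block, and 3565 and 3169 with the fixed block and dye term. Filters on dim probes were not run, since they need intensities.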
